A study of Mus musculus with 10 samples.

Results

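The 10 genes described here encode immunoglobulin-superfamily receptors and partners that restrain or assist T cell activation: Pdcd1, Ctla4, Tigit, Lag3, Btla, Havcr2, Cd160, Cd200, Icos and Cd28. They were chosen by name, and all 10 were among the 22180 genes measured, each through 1 probe set carrying its symbol alone. The cells were regulatory T (Treg) cells, a CD4 T cell lineage that carries Foxp3 and holds immune responses in check. There were 5 LKB1-deficient samples, titled as Stk11 deletion, and 5 wild-type (WT) samples, each on its own single-channel array. Stk11 encodes LKB1, a kinase upstream of AMPK and the kinases related to it. The samples of both groups were sorted without culture from mixed bone marrow (BM) chimeras, mice whose blood cells descend from a mixture of donor marrows, so the cells of both groups had developed in such hosts. The labels used here do not give the deleting Cre line or its promoter, the deleted exons, the age, sex or strain of the hosts and donors, or the organ of the sort. Nor do they say whether a group's samples are separate animals, and the p-values therefore reflect the spread between these samples alone, which could be technical.

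Many coinhibitory receptors, though not all, carry cytoplasmic motifs that recruit phosphatases or otherwise dampen antigen receptor signalling, whereas CD28 and ICOS recruit phosphoinositide 3-kinase and add to it. CTLA-4 competes with CD28 for the ligands CD80 and CD86, and Treg cells use it to strip these ligands from antigen-presenting cells. Treg cells also carry PD-1, TIGIT, LAG-3 and ICOS, most of them at higher density on activated or effector Treg cells.

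Btla, Tigit and Pdcd1 are the genes on which the results below turn. Btla was the receptor gene that passed the test, Tigit had the largest estimate, and Pdcd1 was above every WT array on 4 of 5 LKB1-deficient arrays. Their promoter windows are therefore shown, from RefSeq on build GRCm38.p6, each running 5' to 3' from 250 bases before to 50 bases after the annotated start. The window of Btla is chr16:45224087-45224386 (+), that of Tigit is chr16:43664135-43664434 (-) and that of Pdcd1 is chr1:94052504-94052803 (-). Capitals mark the NFAT core GGAAA, the AP-1 motif TGANTCA, the TCF/LEF core CTTTG and the forkhead core TGTTTAC, searched on both strands.
Btla: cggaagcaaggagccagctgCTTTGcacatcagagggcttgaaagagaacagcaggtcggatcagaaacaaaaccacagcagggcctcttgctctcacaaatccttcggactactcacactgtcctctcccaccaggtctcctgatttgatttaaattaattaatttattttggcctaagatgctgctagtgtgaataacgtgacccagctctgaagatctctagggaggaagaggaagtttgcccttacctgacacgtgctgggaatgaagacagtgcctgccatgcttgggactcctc
Tigit: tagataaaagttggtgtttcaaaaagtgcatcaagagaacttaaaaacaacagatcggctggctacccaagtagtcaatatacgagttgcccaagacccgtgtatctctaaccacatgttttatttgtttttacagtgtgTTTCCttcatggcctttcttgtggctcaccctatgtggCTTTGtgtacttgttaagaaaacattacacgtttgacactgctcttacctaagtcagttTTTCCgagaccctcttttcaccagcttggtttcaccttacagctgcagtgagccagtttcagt
Pdcd1: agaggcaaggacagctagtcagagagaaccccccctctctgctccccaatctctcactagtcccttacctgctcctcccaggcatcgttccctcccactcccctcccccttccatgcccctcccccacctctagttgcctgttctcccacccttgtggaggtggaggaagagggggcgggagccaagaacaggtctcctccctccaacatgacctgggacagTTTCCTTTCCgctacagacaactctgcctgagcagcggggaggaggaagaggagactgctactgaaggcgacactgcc
The Tigit window held 2 NFAT cores and 1 TCF/LEF core, the Pdcd1 window 2 adjoining NFAT cores that begin at positions -28 and -23 from the start, and the Btla window 1 TCF/LEF core that begins at position -230. Of all 32851 promoter windows of this length, 61.3% held the NFAT core and 53.9% the TCF/LEF core, so these matches are common. The AP-1 motif, present in 7.81% of windows, and the forkhead core, in 3.65%, had no match in these 3 windows. Among the other receptor genes with a window, the AP-1 motif was found in that of Havcr2. No motif here overlapped another. The matches describe letters and say nothing about binding. Windows were at hand for 7 of the 10 genes, and the other 3 are Lag3, Icos and Cd28. In the same assembly Cd28, Ctla4 and Icos follow one another without another protein-coding gene between them, and Btla lies next to Cd200.

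Expression is given as log2 signal, as deposited after normalization between arrays. Array medians over all probe sets were 4.88 to 4.94 on LKB1-deficient arrays and 4.83 to 4.86 on WT arrays. Arrays of the LKB1-deficient group correlated with each other over genes at 0.969 to 0.989, and WT arrays at 0.990 to 0.993. Stk11 was at 6.57, 6.01, 6.05, 6.71 and 6.78 on LKB1-deficient arrays 1 to 5, against 6.61, 6.69, 6.75, 6.95 and 6.92 on WT arrays 1 to 5, and the difference of -0.36 (SE 0.16) did not pass (limma adjusted p = 0.335). It was -0.75 (adjusted p = 0.0178) without LKB1-deficient arrays 1, 4 and 5, the 3 highest of the group. This omission, also used below, leaves LKB1-deficient arrays 2 and 3 against the 5 WT arrays. The direction in which it moved Stk11 was fixed by the values left out. With the 2 marker means described next, of macrophages and of B cells, as covariates, Stk11 differed by -0.77 (adjusted p = 0.0116). Both means were highest within the group on arrays 1, 4 and 5, so the 2 fits are not separate checks. No label says whether the Stk11 probe set lies within the deleted part, and it may check the group labels only in part. Foxp3 had a signal of 9.86 on LKB1-deficient array 1 and between 11.10 and 11.50 on arrays 2 to 5, against 10.95 to 11.19 on WT arrays. On LKB1-deficient array 1 the mean of 6 conventional CD4 T cell markers was 9.36, against 8.41 to 8.48 on the other LKB1-deficient arrays and 8.09 to 8.25 on WT arrays. For 12 macrophage, monocyte and dendritic markers the LKB1-deficient arrays had means of 6.79 to 7.39 (arrays 1 to 3), 9.40 (array 4) and 9.52 (array 5), and the WT arrays had 6.57 to 7.02. All 12 of these markers were above every WT array on arrays 4 and 5. For 9 B and plasma cell markers the means were 7.15, 5.85, 5.97, 6.80 and 7.02 on LKB1-deficient arrays 1 to 5, and 5.65 to 6.05 on WT arrays. Fewer cells of a type and less RNA per cell cannot be told apart in such samples, and the part of these other cell types in the results below was not tested.

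Of the 10 receptor genes, 1 was lower in LKB1-deficient Treg cells and none was higher, by limma with Benjamini-Hochberg adjustment over all 22180 genes at 0.05. Over all genes 0.830% were called lower and 0.234% higher. At an unadjusted p under 0.05, 4 of the 10 differed, Btla, Tigit, Icos and Lag3, all with negative estimates, and none with a positive estimate; over all genes 14.0% differed at that level. The estimates of 8 of the 10 were negative, with a median of -0.15, against a median of 0.00 over all genes.

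**Figure D1:**
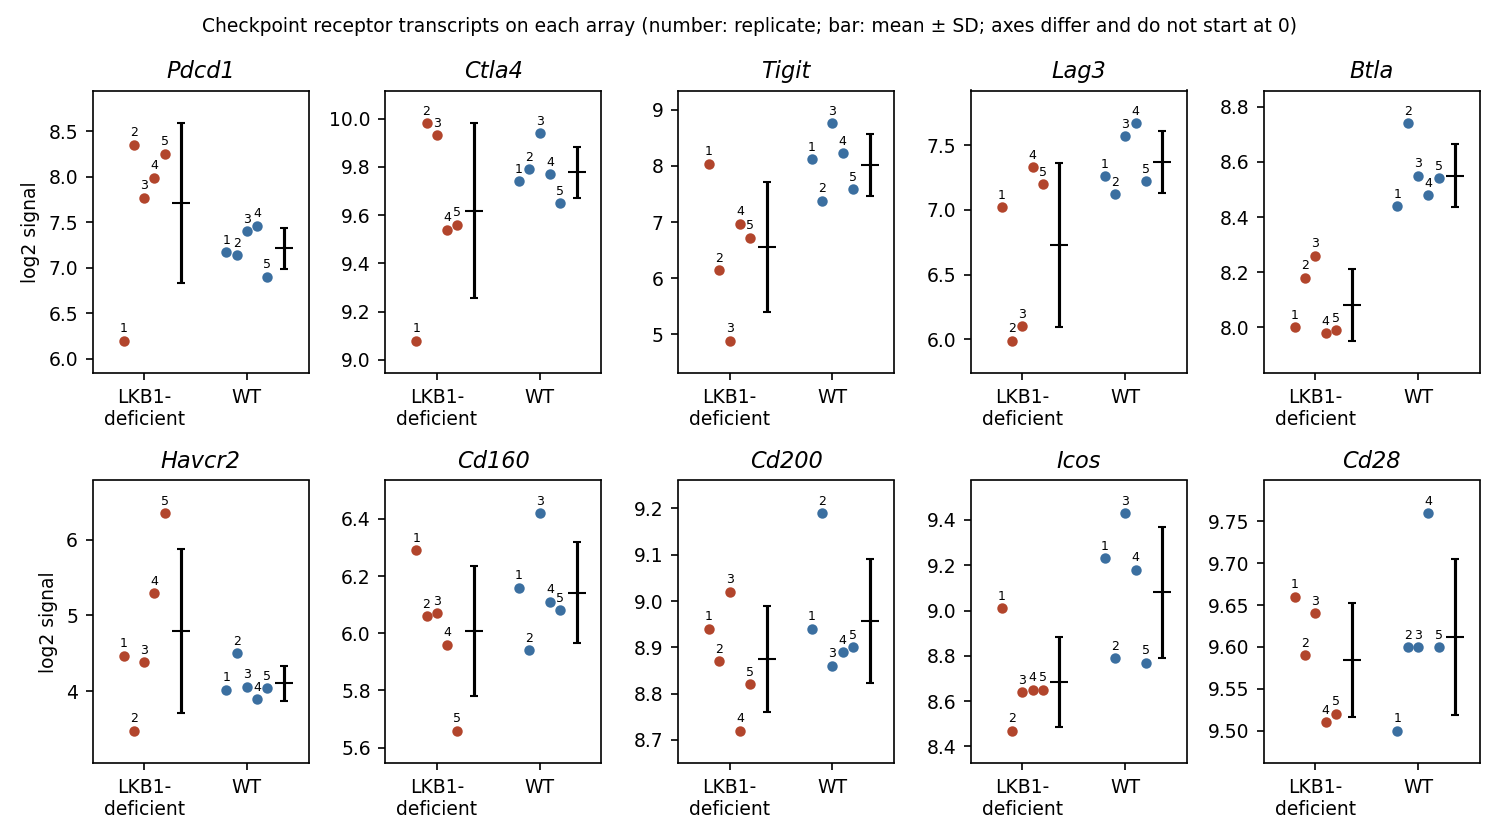
Log2 signal of the 10 receptor genes on each array, with LKB1-deficient samples at left and WT samples at right of each panel; numbers are replicate numbers and bars are the mean and SD of 5 arrays. The Btla groups do not overlap, and LKB1-deficient array 1 lies apart from the other 4 in Pdcd1, at 6.20, and in Ctla4, at 9.08.

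Btla, an inhibitory receptor that binds the TNF receptor family member HVEM (Tnfrsf14), was the receptor gene that fell. Its signal was 8.00, 8.18, 8.26, 7.98 and 7.99 on LKB1-deficient arrays 1 to 5, against 8.44, 8.74, 8.55, 8.48 and 8.54 on WT arrays 1 to 5. Every LKB1-deficient array lay below every WT array, as did those of 3.71% of all genes. The mean was 8.08 ± 0.13 in LKB1-deficient and 8.55 ± 0.11 in WT cells (SD, n = 5 each), a difference of -0.47 (SE 0.09, 95% confidence interval -0.67 to -0.26), or 1.38-fold lower (limma adjusted p = 0.0398). The samples carry running codes whose meaning is not given. From their order, as an assumption, replicates 1 to 3 of each group were taken as a first set and replicates 4 and 5 as a second, and the difference was -0.43 in the first set and -0.53 in the second. The call ended when LKB1-deficient array 4 (adjusted p = 0.0887) or 5 (0.0719) or WT array 1 (0.0755), 2 (0.0932), 3 (0.112), 4 (0.0817) or 5 (0.0901) was left out, with differences of -0.50 to -0.42 in these 7 fits. With LKB1-deficient arrays 1, 4 and 5 left out, Btla differed by -0.33 (adjusted p = 0.207). Its signal was lowest on these arrays, so the direction of that change was fixed by the values left out. These arrays also had the highest macrophage and B cell marker means of the group. With those means as covariates Btla differed by -0.32 (adjusted p = 0.213), and their part was not tested. Tnfrsf14, its ligand, had a difference of 0.18 (adjusted p = 0.52), with 3 of 5 LKB1-deficient arrays above all WT arrays. Cd160, which binds the same ligand, was at 5.66 to 6.29 on LKB1-deficient arrays, against 5.94 to 6.42 on WT arrays, and differed by -0.13 (95% confidence interval -0.41 to 0.14, adjusted p = 0.693).

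Tigit had the largest estimate of the 10 and the widest spread. It encodes an inhibitory receptor for CD155 (Pvr) that competes with the activating receptor CD226. Its signal was 8.04, 6.14, 4.89, 6.97 and 6.72 on LKB1-deficient arrays 1 to 5, against 8.12, 7.38, 8.76, 8.22 and 7.59 on WT arrays 1 to 5. LKB1-deficient arrays 2 to 5 lay below every WT array, and array 1 lay within the WT range. The mean was 6.55 ± 1.16 in LKB1-deficient and 8.01 ± 0.55 in WT cells (SD, n = 5 each), a difference of -1.46 (SE 0.47, 95% confidence interval -2.48 to -0.45) that did not pass over all genes (adjusted p = 0.171). It was -1.73 in the first set and -1.06 in the second. Without LKB1-deficient array 1, the highest of its group, it was -1.84 (adjusted p = 0.0372), and without array 3, the lowest, -1.05 (adjusted p = 0.193). The omission of array 1 was the 1 of 10 single omissions that brought a call, and the way each of these moved the estimate was fixed by the value left out. Pvr had a difference of 0.27 (adjusted p = 0.544): LKB1-deficient array 1 was at 7.90 and the other 4 at 8.63 to 9.06, against 8.24 to 8.59 on WT arrays. Cd226 differed by -0.22 (adjusted p = 0.448).

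Lag3, whose product binds MHC class II and damps CD4 T cell activation, divided the LKB1-deficient arrays. It was at 7.02, 5.99, 6.10, 7.33 and 7.20 on LKB1-deficient arrays 1 to 5, against 7.26, 7.12, 7.57, 7.67 and 7.22 on WT arrays 1 to 5. Arrays 2 and 3 were more than 1 unit below the lowest WT array, array 1 was just below it, and arrays 4 and 5 lay within the WT range. The difference was -0.64 (SE 0.25, adjusted p = 0.273), with -0.95 in the first set and -0.18 in the second. Without LKB1-deficient arrays 1, 4 and 5, the 3 highest of the group, it was -1.32 (adjusted p = 0.00683), and the same omission took Tigit to -2.50 (adjusted p = 0.0141). That fit rests on LKB1-deficient arrays 2 and 3 alone, both in the first set, against the 5 WT arrays. Over all genes 0.915% were called lower in that fit. The direction in which this omission moved both genes was fixed by the values of the arrays left out.

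Pdcd1, encoding PD-1, the receptor for PD-L1 and PD-L2, was at 6.20, 8.35, 7.77, 7.99 and 8.25 on LKB1-deficient arrays 1 to 5, against 7.17, 7.14, 7.40, 7.46 and 6.90 on WT arrays 1 to 5. LKB1-deficient arrays 2 to 5 were above every WT array and array 1 below every one, so its SD was 0.87 in LKB1-deficient and 0.22 in WT cells. At least 4 LKB1-deficient arrays above every WT array were found in 5.29% of all genes. The difference was 0.50 (SE 0.33, 95% confidence interval -0.22 to 1.22, adjusted p = 0.549), with 0.20 in the first set, which holds array 1, and 0.94 in the second. Without array 1, the lowest of its group, it was 0.88 (SE 0.14, adjusted p = 0.0116), and that direction of change and smaller error were fixed by the value left out. Without array 2, the highest, it was 0.34 (adjusted p = 0.7), and without array 5 it was 0.36 (adjusted p = 0.689), and of 10 single omissions only that of array 1 brought a call. In that fit Pdcd1 was the 1 receptor gene called higher, beside 0.812% of all genes, and Btla and Tigit were called lower, beside 1.53%. Without LKB1-deficient arrays 1, 4 and 5 the difference was 0.85 (adjusted p = 0.0566). As a difference from Foxp3 on the same array it was 0.56, with an SD of 0.38 in LKB1-deficient and 0.26 in WT cells. The limma fit of such differences gave each receptor gene the same SE of 0.34 and did not call Pdcd1. Of its ligands, Cd274 (PD-L1) differed by 0.03 (adjusted p = 0.963) and Pdcd1lg2 (PD-L2) by -0.25 (adjusted p = 0.431).

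**Figure D2:**
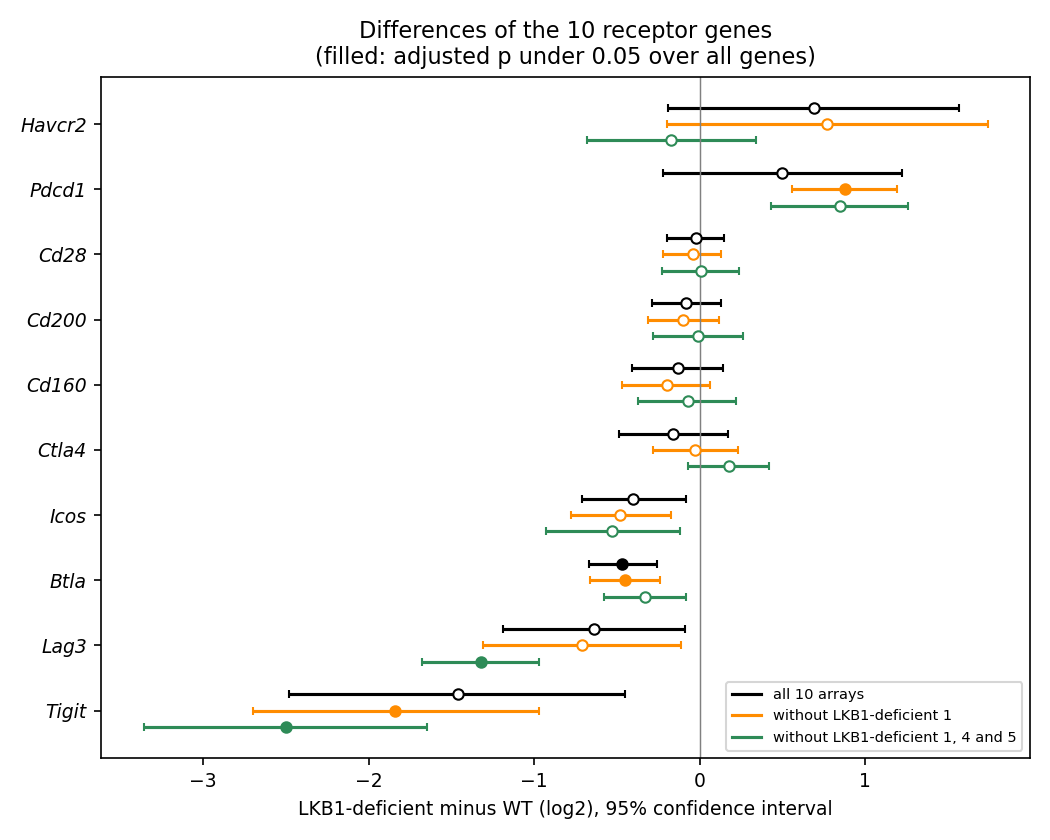
LKB1-deficient minus WT difference on the log2 scale for each receptor gene, with its 95% confidence interval, in the fit of all 10 arrays, without LKB1-deficient array 1 and without LKB1-deficient arrays 1, 4 and 5; filled points have an adjusted p under 0.05 over all genes. Pdcd1 is filled in the fit without array 1, at 0.88, while Tigit extends to -2.50 and Havcr2 is at -0.17 without the 3 arrays. The direction of these changes was fixed by the values left out, and the last fit leaves LKB1-deficient arrays 2 and 3.

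Havcr2, encoding TIM-3, a receptor of exhausted T cells and of many myeloid cells, was low on most arrays. It was at 4.47, 3.48, 4.38, 5.29 and 6.35 on LKB1-deficient arrays 1 to 5, against 4.02, 4.50, 4.06, 3.89 and 4.04 on WT arrays 1 to 5. Only LKB1-deficient arrays 4 and 5 exceeded every WT array, and these are the arrays with the highest macrophage marker means. All WT values lay below the array medians, and the deposited table has no detection calls. The difference of 0.69 (SE 0.40, adjusted p = 0.488) was -0.08 in the first set and 1.85 in the second (adjusted p = 0.051). It was -0.17 without LKB1-deficient arrays 1, 4 and 5. Havcr2 was highest within the group on these arrays, so the direction of that change was fixed by the values left out. With the macrophage and B cell marker means as covariates the difference was -0.25. Those means were highest within the group on the same arrays, and their part was not tested. Lgals9, encoding galectin-9, a TIM-3 ligand, was at 9.97 to 10.31 on LKB1-deficient arrays, against 10.31 to 10.48 on WT arrays, with a difference of -0.23 that did not pass (adjusted p = 0.26).

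**Figure D3:**
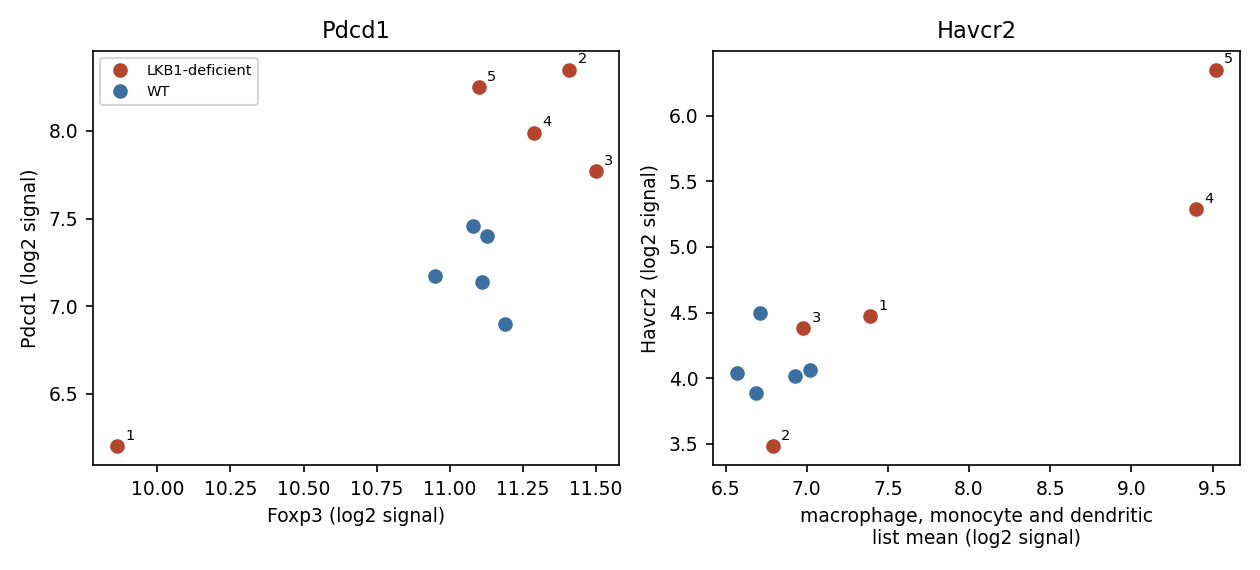
Left, Pdcd1 against Foxp3, and right, Havcr2 against the mean of the macrophage, monocyte and dendritic markers, both as log2 signal on each of the 10 arrays; numbers mark LKB1-deficient replicates. Array 1 is lowest for both Pdcd1, at 6.20, and Foxp3, at 9.86, and arrays 4 and 5 are highest for both Havcr2 and the macrophage mean.

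Ctla4 was at 9.08, 9.98, 9.93, 9.54 and 9.56 on LKB1-deficient arrays 1 to 5, against 9.74, 9.79, 9.94, 9.77 and 9.65 on WT arrays 1 to 5. Arrays 1, 4 and 5 were below every WT array, array 2 was above every one, and array 3 was within the WT range. The difference of -0.16 (95% confidence interval -0.49 to 0.17, adjusted p = 0.701) was -0.16 in each set, -0.03 without LKB1-deficient array 1 and 0.18 without arrays 1, 4 and 5. Within the group Ctla4 was lowest on array 1 and next lowest on arrays 4 and 5. The direction in which both omissions moved the estimate was therefore fixed by the values left out. The CTLA-4 ligand genes Cd80 and Cd86 differed by 0.10 and 0.02 (adjusted p = 0.816 and 0.989). Cd86 had signals of 5.75, 6.03, 5.92, 7.91 and 8.34 on LKB1-deficient arrays 1 to 5, against 6.46 to 7.21 on WT arrays, so arrays 1 to 3 were below every WT array and arrays 4 and 5 above. Cd28, the costimulatory receptor for the same ligands, was nearly level, at 9.51 to 9.66 on LKB1-deficient arrays, against 9.50 to 9.76 on WT arrays. Its difference was -0.02 (95% confidence interval -0.20 to 0.15, adjusted p = 0.928), with 0.07 in the first set and -0.16 in the second.

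Icos, a costimulatory receptor of effector and follicular T cells, was at 9.01, 8.47, 8.64, 8.65 and 8.65 on LKB1-deficient arrays 1 to 5, against 9.23, 8.79, 9.43, 9.18 and 8.77 on WT arrays 1 to 5. LKB1-deficient arrays 2 to 5 were below every WT array and array 1 within the WT range. The difference was -0.40 (SE 0.15, 95% confidence interval -0.71 to -0.08, adjusted p = 0.231), with -0.44 in the first set and -0.33 in the second. Icosl, its ligand, differed by 0.39 (adjusted p = 0.419). Cd200, a ligand for the inhibitory receptor encoded by Cd200r1, was at 8.72 to 9.02 on LKB1-deficient arrays, against 8.86 to 9.19 on WT arrays, and differed by -0.08 (95% confidence interval -0.29 to 0.13, adjusted p = 0.761). Cd200r1 itself was at 6.16 to 6.47 on LKB1-deficient arrays, against 6.49 to 7.09 on WT arrays, with no overlap and a difference of -0.26 (adjusted p = 0.371).

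The arrays of the LKB1-deficient group differed among themselves, and not alike in each receptor gene. The SD over 5 arrays was larger in LKB1-deficient than in WT cells for 7 of the 10 receptor genes, as it was for 68.8% of all genes, and the exceptions were Cd200, Icos and Cd28. On LKB1-deficient array 1, Tigit was 0.03 and Icos -0.07 from the WT mean on the log2 scale, whereas Btla, Pdcd1 and Ctla4 were -0.55, -1.01 and -0.70 from it. On arrays 2 and 3, Tigit was -1.88 and -3.13 and Lag3 -1.38 and -1.27 from the WT mean, with Pdcd1 at 1.14 and 0.56. Arrays 2 and 3 are also those with the lowest Stk11 signal and, within the group, the lowest macrophage and B cell marker means, and their part in this pattern was not tested. At least 4 LKB1-deficient arrays lay below every WT array for 3 of the 10, Tigit, Btla and Icos, as for 9.41% of all genes.

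**Figure D4:**
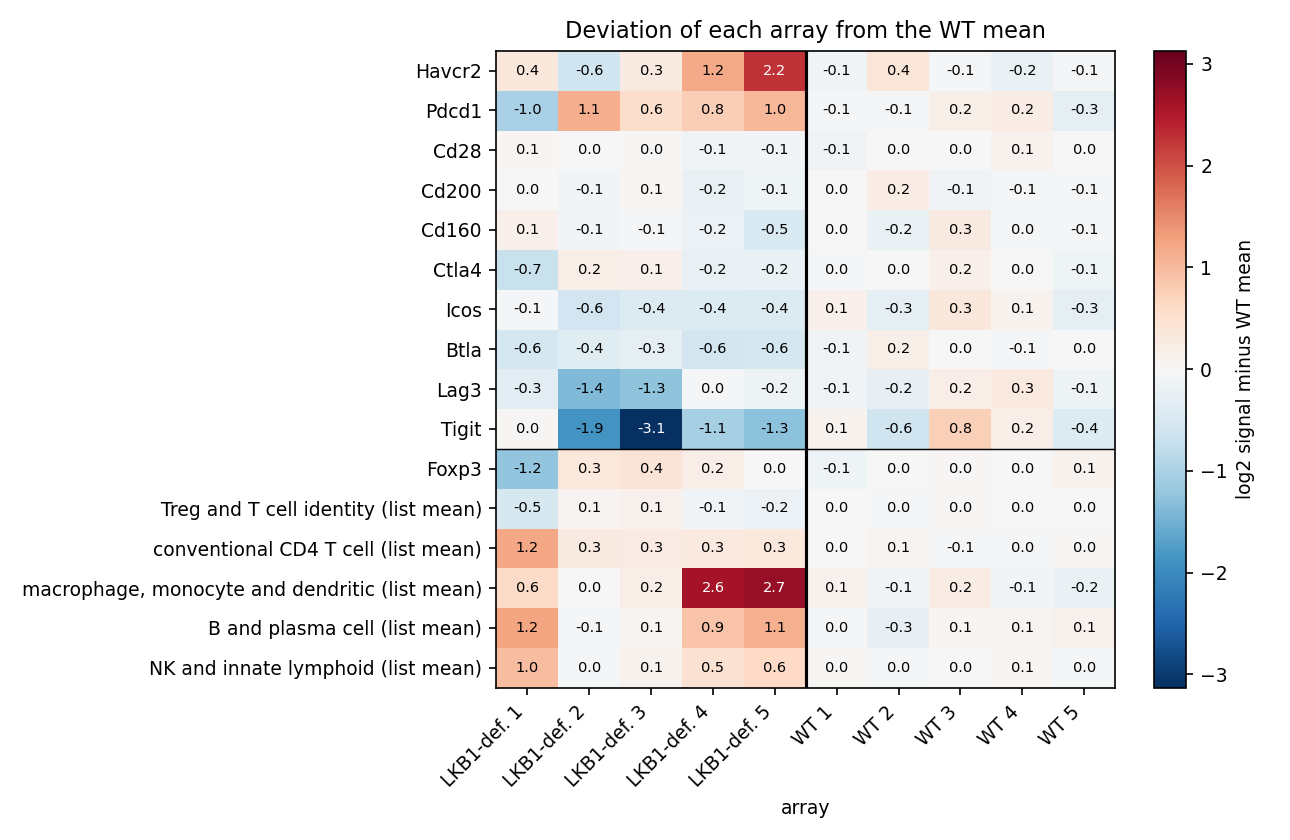
Log2 signal minus the WT mean on each array for the 10 receptor genes, Foxp3 and the means of 5 marker lists, with LKB1-deficient arrays at left and WT arrays at right. Array 1 is low in Pdcd1, Ctla4 and Foxp3 and high in the conventional CD4 T cell list, and arrays 4 and 5 are high in Havcr2 and the macrophage list.

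The genes with the most similar pattern over the 10 arrays, by Pearson correlation among named genes brighter than the median, were taken for Pdcd1, Tigit and Ctla4. This likeness is a description over 10 arrays that share these outlying samples. For Pdcd1 they were Tapbpl, at 0.982, Gimap7, at 0.959, Ap3b1, at 0.955, and Dusp22, at 0.952. For Tigit they were Qdpr, at 0.970, Acsl5, at 0.961, Atp2b4, at 0.946, and Nkg7, at 0.936. Nkg7, a granule protein of cytotoxic cells, was lower, with a difference of -0.84 (adjusted p = 0.0236), and none of the other 3 passed. It was the 1 gene with a negative estimate among 8 NK and innate lymphoid markers, whose median difference was 0.58 and whose other call was Klrd1, an NK cell lectin-like receptor, which was higher by 1.53 (adjusted p = 0.017). For Ctla4 they were Atmin, at 0.961, Srrt, at 0.960, Sumo2, at 0.958, and Phtf1, at 0.954, none past the test.

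Genes that act with these receptors were examined as transcription regulators, signalling partners, ligands and other coreceptors. Of 18 measured regulators of receptor expression and T cell activation, 3 were lower and none higher, against 0.830% and 0.234% of all genes, with a median difference of -0.13 against 0.00 over all genes. Batf, an AP-1 family factor of effector Treg cells, was at 6.96, 7.18, 7.16, 7.47 and 7.30 on LKB1-deficient arrays 1 to 5, against 8.14, 7.87, 8.22, 8.05 and 8.13 on WT arrays 1 to 5. The groups did not overlap, and the difference was -0.87 (SE 0.11, adjusted p = 0.0074, and 0.0341 at most with any 1 array left out). Irf4, its partner factor, was lower, at a difference of -0.74 (adjusted p = 0.0442), and Nfatc1, an NFAT factor downstream of calcium signalling, was lower at -0.48 (adjusted p = 0.0473). Both calls held without LKB1-deficient array 1 (0.0191 and 0.045) and ended without any other single array of either group, with adjusted p up to 0.13 for Irf4 and 0.127 for Nfatc1. When LKB1-deficient arrays 1, 4 and 5 were left out together both calls ended too, at 0.0513 for Irf4 and 0.101 for Nfatc1 (adjusted p). Id3, an inhibitor of E proteins, differed by -1.05, just short of the threshold (adjusted p = 0.05004). It passed without LKB1-deficient array 1 (0.0288) or 3 (0.0153), 2 of 10 single omissions, with adjusted p up to 0.133 in the others. Array 1 was the lowest of the group for Id3 and array 3 the highest. The direction in which each omission moved the estimate was therefore fixed by the value left out. At an unadjusted p under 0.05 there were 7 of the 18 regulators, against 14.0% of all genes. Those of the 7 with positive estimates were Nr4a3, at 0.55 (adjusted p = 0.196), and Eomes, at 0.70 (adjusted p = 0.225). Over the list 15 estimates were negative and 3 positive. Ctnnb1, encoding beta-catenin, differed by -0.07 (adjusted p = 0.884).

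None of the 20 measured signalling partners passed, and their median difference was -0.08. At an unadjusted p under 0.05 there were 6, against 14.0% of all genes at that level. Trat1, an adaptor that binds the antigen receptor complex and helps CTLA-4 to the cell surface, had the smallest p, with 8.03 to 8.44 on LKB1-deficient arrays, against 8.54 to 8.65 on WT arrays, no overlap and a difference of -0.39 (adjusted p = 0.0643; 0.0364 without LKB1-deficient array 3). Cblb, a ubiquitin ligase that makes T cells depend on CD28, was at 10.55 to 11.09 on LKB1-deficient arrays, against 10.32 to 10.57 on WT arrays, a difference of 0.41 (adjusted p = 0.111; 0.0366 without LKB1-deficient array 1). It was 0.63 (adjusted p = 0.0221) without LKB1-deficient arrays 1, 4 and 5, where Cblb was lowest within the group. Array 1 was the lowest of these for Cblb, and array 3 was the highest of the group for Trat1. The direction in which these omissions moved each estimate was therefore fixed by the values left out. Zap70, the kinase of the antigen receptor, differed by -0.28 (adjusted p = 0.188), and Csk, which restrains Src-family kinases, by -0.19 (adjusted p = 0.276). The phosphatase genes Ptpn6 and Ptpn11, whose products bind inhibitory receptor tails, differed by -0.16 and -0.25 (adjusted p = 0.507 and 0.354).

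None of the 15 ligand genes and none of the 14 other measured coreceptor genes passed in the limma fit, with medians of 0.10 and -0.11, and 1 and 2 of them had an unadjusted p under 0.05, against 14.0% of all genes. Besides Lgals9 and Cd200r1, the ligand list had its smallest p in Ceacam1, with a difference of 0.73 (adjusted p = 0.361), and Lgals3, with 0.58 (adjusted p = 0.388). Lgals3 had signals of 6.50, 5.93, 6.36, 7.60 and 7.53 on LKB1-deficient arrays 1 to 5, against 5.96 to 6.33 on WT arrays. Among coreceptors, Klrg1, an inhibitory lectin-like receptor of terminal effector Treg cells, was at 4.36 to 5.39 on LKB1-deficient arrays, against 5.40 to 6.14 on WT arrays, with no overlap and a difference of -0.82 (adjusted p = 0.101). It passed at -1.31 (adjusted p = 0.0124) when LKB1-deficient arrays 1, 4 and 5 were left out. Klrg1 was highest within the group on these arrays, so the direction of that change was fixed by the values left out. In the fit with the macrophage and B cell means as covariates Klrg1 differed by -1.32 (adjusted p = 0.00706). Those means were highest within the group on the same arrays, so that fit is not a separate check. Lair1, an inhibitory collagen receptor found on many leukocytes, had signals of 6.74, 6.33, 6.22, 7.93 and 8.38 on LKB1-deficient arrays 1 to 5, against 5.75 to 6.23 on WT arrays, with a difference of 1.19 (adjusted p = 0.155). Its difference was 0.39 in the first set and 2.39 (adjusted p = 0.00147) in the second, which holds the arrays with the highest macrophage marker means. It was 0.34 without LKB1-deficient arrays 1, 4 and 5, where its signal was highest within the group. In the second set alone Ceacam1, Lgals3 and Cd244a were also called higher, at 1.71, 1.43 and 0.92. Over all genes 1.91% were called higher in that fit, against 0.234% in the fit of all 10 arrays. Cd244a and Cd101 differed by 0.41 and -0.26 (adjusted p = 0.416 and 0.445).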

How the data were processed

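The deposited values are log2 signals of single-channel arrays, and per the submitters' processing notes the authors used RMA (background correction, quantile normalization and a summary per probe set) and Partek 6.6; their settings are not stated there. Per the labels' protocols, a few nanograms of total RNA were amplified with NuGEN kits before biotin labelling, which can distort levels. Quantile normalization hides a shift shared by all transcripts.

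Of 41345 probe sets, 23521 carried 1 gene symbol, 1814 several and 16010 none, and the last 2 kinds were not used. The brightest probe set over the 10 arrays stood for each of 22180 genes, and no gene was removed for low signal. Groups and replicate numbers came from the sample titles. LKB1-deficient and WT arrays (5 each) were compared with limma 3.58.1 (lmFit and eBayes, no covariate) in R 4.3.3, with Benjamini-Hochberg adjustment over all genes and a threshold of 0.05. Adjusted p-values are from limma. The code was tested on simulated data. The number of arrays limits the precision. All 10 receptor genes, Stk11, Foxp3 and the 4 genes most like Pdcd1, Tigit and Ctla4 were named. Related genes were named as the up to 4 of smallest p per list, and ligands and partners of a described receptor were named beside it after values were seen. Ctnnb1, Nr4a3 and Eomes were named outside this rule, with values known. The receptor genes, lists, marker lists and alternatives were chosen with earlier results of these data known. RefSeq tables of GRCm38.p6 gave promoter windows and gene order only.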

Additional observations from a re-analysis of the deposited data

Results flagged for a closer look

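In 4 of 24 sets of 5 arrays (10 receptor genes, Stk11 and Foxp3 in each group), 1 array stood apart from the rest by more than Dixon's 95% critical value of 0.71 for its gap over the range, where chance gives about 1 in 20. Pdcd1 was 6.20 on LKB1-deficient array 1, below the other 4 by 0.731 of the range. Foxp3 was 9.86 on the same array, with a ratio of 0.753. Havcr2 at 4.50 and Cd200 at 9.19 stood high on WT array 2, with ratios of 0.731 and 0.746.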

How the results depend on the processing

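The count of receptor genes called, 0 higher and 1 lower (Btla), was 0 lower with the replicate block, in set 1 alone, in set 2 alone and at an adjusted p under 0.01. It was 2 lower with array quality weights (Btla and Tigit), and 2 lower (Lag3 and Tigit in each) without LKB1-deficient arrays 1, 4 and 5 or with the covariates, which are each array's mean over the myeloid markers and over the B and plasma cell markers. Over all genes 1.48%, 0.915% and 0.775% were called lower in these fits, in that order. The covariates were highest within the LKB1-deficient group on arrays 1, 4 and 5, so the last 2 of these fits are not separate checks. As a difference from Foxp3, the 1 called was Tigit (-1.40, adjusted p = 0.019), and over all genes 81 were higher and 10 lower in that fit, against 52 and 184. That fit gave each receptor gene the same SE of 0.34. Tigit minus Foxp3 had an SD of 1.76 on LKB1-deficient and 0.57 on WT arrays, so the call does not reflect its own spread. With single arrays left out the counts ran between 0 and 1 higher and 0 and 2 lower. In set 1 alone limma called 0 of 22180 genes, and 2247 had an unadjusted p under 0.05. Same-numbered arrays of the 2 groups deviated from their group means with correlations of -0.079 to 0.102, so the numbers were not taken to pair samples. Such correlations cannot show whether samples of the 2 groups shared hosts. With the replicate block Btla had an adjusted p of 0.0972 and was not called, and 50 genes of all were called against 236.

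In the related lists, with 0 higher and 3 lower, counts of higher genes were 1 with a trended robust prior, 6 in set 2 alone, and 2 with array weights, with the covariates or without the 3 arrays. Over all genes 0.356%, 1.91%, 0.609%, 0.419% and 0.694% were called higher in these fits, in that order, against 0.234% in the fit of all 10 arrays. For lower genes the share over all genes stands in brackets after each fit below, against 0.830% in the fit of all 10 arrays. Lower genes numbered 6 with array medians subtracted (1.64%). They numbered 5 without the dimmest 40% of genes (2.13%), with the trended prior (1.38%), with array weights (1.48%) or with the covariates (0.775%). They numbered 1 with a second quantile normalization (0.735%), the replicate block (0.162%), set 2 alone (0.207%) or the stricter threshold (0.0902%). They numbered 0 in set 1 alone (0%) or relative to Foxp3 (0.0451%). Single arrays left out gave 0 to 2 higher and 1 to 4 lower, where 0.0361% to 0.812% of all genes were higher and 0.135% to 1.53% lower.

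Of 698 gene values over 25 alternatives, 21 changed sign, none of them past the threshold. With the covariates these were Cd200 (0.02), Cd28 (0.01), Ctla4 (0.14), Foxp3 (0.27), Havcr2 (-0.25), Cd244a (-0.07) and Lgals3 (-0.12). Without the 3 arrays they were Cd28 (0.01), Ctla4 (0.18), Foxp3 (0.36), Havcr2 (-0.17), Cd244a (-0.02), Ceacam1 (-0.02) and Lgals3 (-0.06). In set 1 alone Cd28 was 0.07 and Havcr2 -0.08, in set 2 alone Foxp3 was 0.05, with array weights Foxp3 was 0.12, and relative to Foxp3 Cd28 was 0.04. With single arrays left out, Foxp3 ran between -0.18 and 0.23 (without LKB1-deficient array 1) and Cd28 between -0.05 and 0.01 (without WT array 4). The cause of these changes was not tested. Some alternatives could not change a sign, because they leave the estimates of the named genes as they were. They are the other uses of a gene's probe sets, the fit without dim genes, the trended prior, the blocks for replicate number and for set, and the stricter threshold. The 21 of 698 is therefore no measure of stability. Havcr2 was among the dimmest 40% of genes and has no value in the fit without them.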
